A study of Mus musculus with 2 samples.

Results

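Distal Myb peaks in repeat sequence were taken from the Myb peak list of Lin- bone marrow cells as the peaks whose summit lay more than 3 kb from every GENCODE vM21 transcript start and at which more than 50 of the bases in a window of 50 bp on each side of the summit base were soft-masked, that is, written in lower case as repeat in the GRCm38 reference sequence. There were 861 such peaks among 10948 distal peaks and 25793 peaks in all. The sample was 1 Myb ChIP-Seq library from Lin- cells of WT mice, which are bone marrow cells depleted of those carrying markers of mature blood lineages (stated purity >80%), and 1 library made with normal rabbit IgG from WT Lin- cells served as its background. Antibody-bound chromatin was tagged with Tn5 transposase on the beads, amplified for 12 cycles and sequenced single-end for 75 cycles. Each antibody had 1 library, so no value below has a replicate check, and every interval is a 95% interval that covers counting error only. A peak list carries no expression values, so the labelled cell type could not be checked against its markers.

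Myb is a transcription factor of blood stem and progenitor cells that binds DNA through a short site built around the bases AAC. Interspersed repeats are copies of transposable elements, such as the short B1 and B2 elements of rodents, and tandem repeats are runs of a short unit. Many transcription factors bind sites carried by copies of such elements, and reads from young copies often cannot be placed because the same sequence occurs at many sites.

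The second largest group by sequence was a family of 45 repeat peaks whose windows of 100 bp on each side of the summit resembled one another. Of these, 23 carried a Myb motif within 50 bp of the summit. About the same share of the family's distal genome copies, 51.98% over aligned copies, carried the motif, with or without a peak. The motif searched was CAACGG or CAACTG, or TAACGG or TAACTG, on either strand. Windows of 50 bp on each side of the summit are printed here for 5 of its strongest motif-bearing members and for its member near Runx1, with the motif in capitals. All sequences are RefSeq GRCm38 (mm10), 5′ to 3′, turned to the strand on which the family aligns. In the printed sequences capitals mark only the motif or the run named, and the case of the reference, which shows masking, was not kept.
Tcf12 peak, chr9:72089330-72089430, plus strand: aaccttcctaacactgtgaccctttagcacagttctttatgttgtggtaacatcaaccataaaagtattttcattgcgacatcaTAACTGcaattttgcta
Il31ra peak, chr13:112552158-112552258, plus strand: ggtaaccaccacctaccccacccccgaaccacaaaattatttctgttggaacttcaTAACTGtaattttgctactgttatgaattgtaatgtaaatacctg
Sptlc2 peak, chr12:87407005-87407105, plus strand: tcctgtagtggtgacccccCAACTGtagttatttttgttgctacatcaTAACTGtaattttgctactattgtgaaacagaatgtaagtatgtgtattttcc
Tbc1d2b peak, chr9:90245117-90245217, minus strand: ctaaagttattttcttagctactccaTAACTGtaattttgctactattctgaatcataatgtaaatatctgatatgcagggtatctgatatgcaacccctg
Sgms2 peak, chr3:131368834-131368934, plus strand: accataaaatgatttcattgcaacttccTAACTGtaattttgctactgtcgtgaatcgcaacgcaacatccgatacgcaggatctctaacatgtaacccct
Runx1 peak, chr16:92819590-92819690, plus strand: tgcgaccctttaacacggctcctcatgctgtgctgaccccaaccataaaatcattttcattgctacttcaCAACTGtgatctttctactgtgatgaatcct

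Other repeat peaks looked different. The strongest of all, near Galnt2, held 1 Myb motif, shown in capitals. The strongest peak on a run of the unit AAAC, near Resf1, is shown with the perfect run in capitals. The annotated B1 element of the RefSeq annotation is shown for comparison with the strongest peak whose best match was that element, near Irf2bpl, and neither holds the motif.
Galnt2 peak, chr8:124177294-124177394, plus strand: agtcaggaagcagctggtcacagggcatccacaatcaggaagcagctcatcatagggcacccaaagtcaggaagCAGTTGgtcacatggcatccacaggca
Resf1 peak, chr6:149279293-149279393, plus strand: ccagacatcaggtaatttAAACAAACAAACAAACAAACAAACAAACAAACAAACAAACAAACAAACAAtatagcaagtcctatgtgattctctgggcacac
Annotated B1 element, chr7:103823699-103823836, plus strand: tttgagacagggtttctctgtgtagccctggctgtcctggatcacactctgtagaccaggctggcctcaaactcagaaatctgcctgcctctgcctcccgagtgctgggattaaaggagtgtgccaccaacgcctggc
Irf2bpl peak, chr12:86834204-86834304, plus strand: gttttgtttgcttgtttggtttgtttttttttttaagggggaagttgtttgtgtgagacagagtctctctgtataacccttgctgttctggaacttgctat

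Distal Myb summits fell in repeat sequence less often than distal genome positions do. Repeat peaks made up 7.86% of distal peaks (7.37 to 8.38), while 33.9% of all distal positions met the same masking rule. At the genome share there would have been 3716 such peaks, 4.32 times as many as were found. Windows 500 bp upstream and downstream of the same distal summits met the rule in 21.1% (20.4 to 21.9) and 21.3% (20.6 to 22.1) of cases. Per Mb of distal sequence, there were 1.13 repeat peaks in sequence that met the rule (1.06 to 1.21) and 6.83 peaks in the rest (6.69 to 6.96). The authors kept only reads of high mapping quality, which removes reads that fit several places, and the part of that filter in the difference was not tested. The shortfall was present on each of the 19 autosomes, where repeat peaks were 5.10% to 9.20% of distal peaks and 27.9% to 34.0% of distal positions met the rule. The X chromosome had 8 repeat peaks among 152 distal peaks (5.26%, 2.30 to 10.1), with 45.6% of its distal positions meeting the rule. The Y chromosome had 1 among 3.

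**Figure D1:**
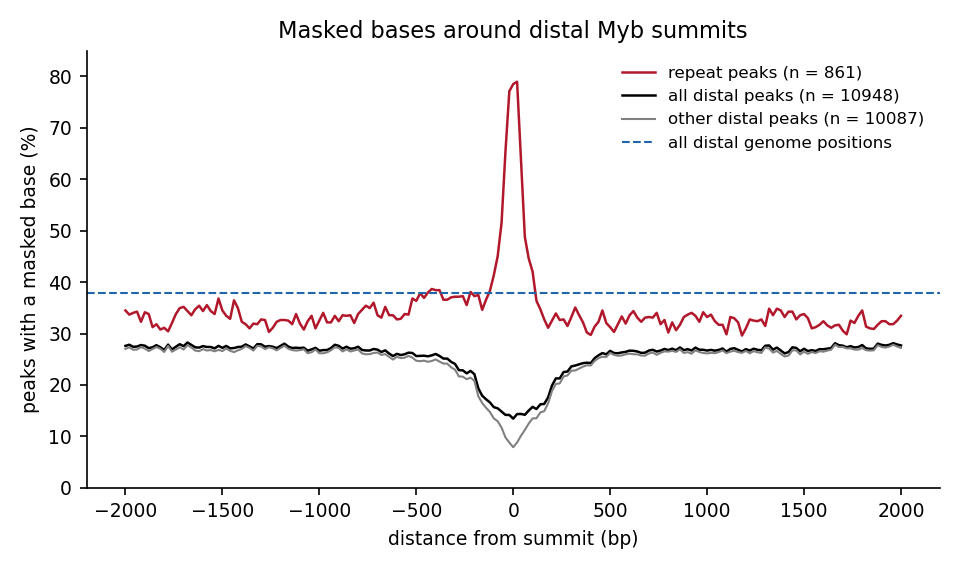
Share of peaks with a masked (repeat) base at each distance from the summit in bp, every 20 bp, for the repeat peaks, all distal peaks and the other distal peaks; the dashed line is the share of all distal genome bases that are masked (37.9%). Over all distal peaks the share falls to 13.5% at the summit, and the repeat peaks rise to 78.5% there because they were chosen for it.

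The repeats under these summits were short. The summit base itself was masked in 676 of the 861 repeat peaks (78.5%, 75.6 to 81.2), and the whole window was masked in 99 (11.5%, 9.44 to 13.8). Where the summit base was masked, the unbroken masked block around it had a median length of 81 bp (75 to 88), with quartiles of 55 and 147 bp and a longest block of 2276 bp. Distal genome positions taken every 10 kb that met the rule and had a masked centre lay in blocks with a median of 338 bp (331 to 346). Only 11 of the 676 peaks lay in a block over 500 bp (1.63%, 0.815 to 2.89), against 43.3% of those genome positions (42.9 to 43.6). Blocks of 51 to 200 bp held 459 of the 676 (67.9%, 64.2 to 71.4), against 31.9% of the genome positions. In 136 of 676 (20.1%) the summit lay within 10% of the block's length from either end. That is about the share that even placement along the block would give. The median GC content of the window was 40.6%, as in masked genome windows (40.6%), and was 46.5% at the other distal peaks.

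Nearly all repeat peaks sat on sequence that a full read could place. The 75 bases centered on the summit occurred once in the genome at 857 of 861 repeat peaks (99.5%, 98.8 to 99.9), at 99.9% of the other distal peaks (99.86 to 99.97) and at 69.96% of masked genome windows (69.6 to 70.3). The authors' mapping-quality filter removes reads that fit several places, so a high share at peaks was largely set in advance. With 36 bases, 784 repeat peaks (91.1%, 88.9 to 92.9) were unique, against 99.5% of other distal peaks and 51.4% of masked genome windows.

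Repeat peaks had lower medians than the other distal peaks in fold enrichment, significance, width and reads. Fold enrichment, the authors' ratio of the Myb pileup to the local IgG background at the summit, had a median of 4.15 (4.14 to 4.23) and ranged from 1.91 to 14.6. It had a median of 4.53 (4.48 to 4.60) at the 10087 other distal peaks, where the highest value was 26.6. The median −log10 q was 3.26 (3.09 to 3.49) against 4.35 (4.19 to 4.45). The median peak was 441 bp wide (426 to 459) against 536 bp (530 to 543). Read counts recovered from the deposited values gave a median of 15 reads over the summit (15 to 15) against 18 (18 to 18). The local background had medians of 1.95 and 2.00 on the scaled pileup of the peak caller, in which 1 Myb read counts as 0.769, so reads and background are not on the same scale. Fewer than 20 reads lay over the summit of 642 repeat peaks (74.6%, 71.5 to 77.4), against 58.1% of the other distal peaks (57.2 to 59.1). A q-value above 0.05 in the list was found at 94 repeat peaks (10.9%, 8.91 to 13.2) and at 7.30% of the other distal peaks (6.80 to 7.82). The paper states a q-value below 0.05 for its calls on pseudo-replicates, and why the list holds higher values was not tested. At this depth a single repeat peak was measured loosely: 15 reads have a Poisson interval of 8.40 to 24.7 reads. At the edge of the rule, the 150 peaks with 51 to 55 masked bases had a median fold of 4.27, and the 193 peaks with 46 to 50 masked bases, just outside it, had 4.15.

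By position, 474 repeat peaks were intronic (55.1%, 51.7 to 58.4), 365 intergenic (42.4%, 39.1 to 45.8) and 22 exonic (2.56%, 1.61 to 3.84). The shares in introns and between genes were close to those of the other distal peaks, at 56.4% (55.4 to 57.4) and 39.1% (38.2 to 40.1), while fewer lay in exons than the 4.46% (4.07 to 4.88) there. The median folds in introns, between genes and in exons had overlapping intervals, at 4.15 (4.04 to 4.25), 4.18 (4.10 to 4.37) and 4.15 (3.54 to 5.09). The median distance to the nearest transcript start was 8949 bp (8152 to 9602), with a farthest of 211950 bp. Only 34 lay beyond 50 kb (3.95%, 2.75 to 5.47), against 6.39% of other distal peaks (5.92 to 6.89), and 5 were wider than 2 kb. Another distal summit lay within 10 kb of 482 of them (56.0%, 52.6 to 59.3), against 46.9% of the other distal peaks (45.9 to 47.8).

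The 10 repeat peaks with the highest fold enrichment included 1 from the 5 largest families described further on, that near Rcan3. The strongest, chr8:124176884-124177525, lay 54047 bp from the start of Galnt2, which encodes an enzyme that starts O-linked glycosylation. The peak was in an intron, which here means one of any annotated gene and need not belong to the gene named. It had 14.6-fold enrichment, 52 reads, a background of 1.81 on the scaled pileup, and 1 Myb motif. A second repeat peak followed 461 bp downstream of it by summit, with 10.1-fold enrichment and 36 reads and no motif. The windows of both were unique in the genome at 75 and at 36 bases.

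The next peaks were near Hs6st1, a heparan sulfate sulfotransferase gene, with 13.3-fold enrichment and 60 reads, and near Bclaf3 on the X chromosome, with 12.9-fold and 40 reads. Peaks near Scoc (12.6-fold, 39 reads) and Prss39 (12.4-fold, 47 reads) followed. The Bclaf3, Scoc and Prss39 peaks each held 1 Myb motif. The remaining 5, near Arhgap32 (11.9-fold), Cul4a (11.6), Zfp36l2 (11.4), Rcan3 (11.4) and Slc16a10 (11.02), held none. Cul4a encodes a scaffold of ubiquitin ligases, Zfp36l2 an RNA-binding protein that promotes mRNA decay, and Rcan3 a regulator of calcineurin. In all, 4 of these 10 peaks carried the motif, and 5 had fewer than 60 masked bases in the window. The Zfp36l2 window resembled 7SL RNA, from which B1 derives.

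A Myb motif lay within 50 bp of the summit at 108 of 861 repeat peaks (12.5%, 10.4 to 14.9). Background shares were 7.6% of masked genome windows of the same length and 19.9% of windows at the other distal peaks. The difference from the masked genome windows was 4.94 percentage points (2.88 to 7.33), and that from the other distal peaks was −7.40 points (−9.60 to −4.90). The peaks' own flanking windows, 500 bp away on either side, held it in 9.76% of cases (8.40 to 11.3), a difference of 2.79 points (0.254 to 5.51). With flanks 1000 bp away the difference was 1.80 points (−0.768 to 4.55), an interval that includes 0. That summit-to-flank ratio was 1.29, against 1.82 at the other distal peaks. Without the family of 45, an alternative chosen after seeing the data, the summit and flank shares were 10.4% and 9.56%, and the difference of 0.858 points had an interval of −1.59 to 3.50. The family had been set apart with its motif share known, so its removal was bound to lower the excess. Among the 108, TAACTG was found in 63, CAACTG in 38, TAACGG in 10 and CAACGG in 3, and in 67 (62.0%) a motif lay wholly within masked bases. The motif share was 16.7% (12.0 to 22.4) in the 215 repeat peaks with the highest fold and 13.7% (9.44 to 18.97) in the 219 with the lowest, a difference of 3.05 points (−3.75 to 9.86).

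By distance, repeat peaks had fewer motifs on the summit than beside it. The rule itself places masked bases around the summit, and masked genome windows held the motif less often than unmasked ones (7.6% and 11.6%). Within 50 bp of repeat summits, masked and unmasked bases held 1.13 and 1.16 motifs per kb. How far the choice of peaks sets the lower share at the summit was not tested. In bins of 25 bp, searched with 3 bp more on each side, 2.56% (1.61 to 3.84) and 3.48% (2.36 to 4.94) of repeat peaks had a motif in the bins that touch the summit, and 5.46% (4.04 to 7.19) in the bins centered 112.5 bp away on either side. The other distal peaks had 5.65% and 6.15% at the summit, and 4.89% and 4.65% at 112.5 bp. Within 150 bp of the summit, 366 repeat peaks held a motif (42.5%, 39.2 to 45.9), and the difference from the 44.9% of other distal peaks was −2.38 points (−5.78 to 1.09). The share in masked genome windows of that length was 23.1%. Within 300 bp the shares were 61.4% and 62.6%, with a difference of −1.13 points (−4.55 to 2.21).

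Counted per kb of sequence, the unmasked bases 51 to 150 bp from repeat summits held 2.22 motifs (1.94 to 2.54), and those over 300 and up to 600 bp away held 1.31 (1.19 to 1.44). The corresponding densities at the other distal peaks were 1.97 (1.91 to 2.04) and 1.35 (1.32 to 1.39). In masked bases around repeat peaks the density was 1.13 motifs per kb within 50 bp (0.883 to 1.43), 1.45 at 51 to 150 bp (1.18 to 1.75) and 0.672 beyond 300 and up to 600 bp (0.557 to 0.804), against 0.727 in masked bases of the masked genome windows (0.707 to 0.748). Unmasked bases within 50 bp of repeat summits held 1.16 (0.769 to 1.67). At 51 to 150 bp the motif was thus denser than farther out in both kinds of sequence, and denser in unmasked than in masked bases.

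**Figure D2:**
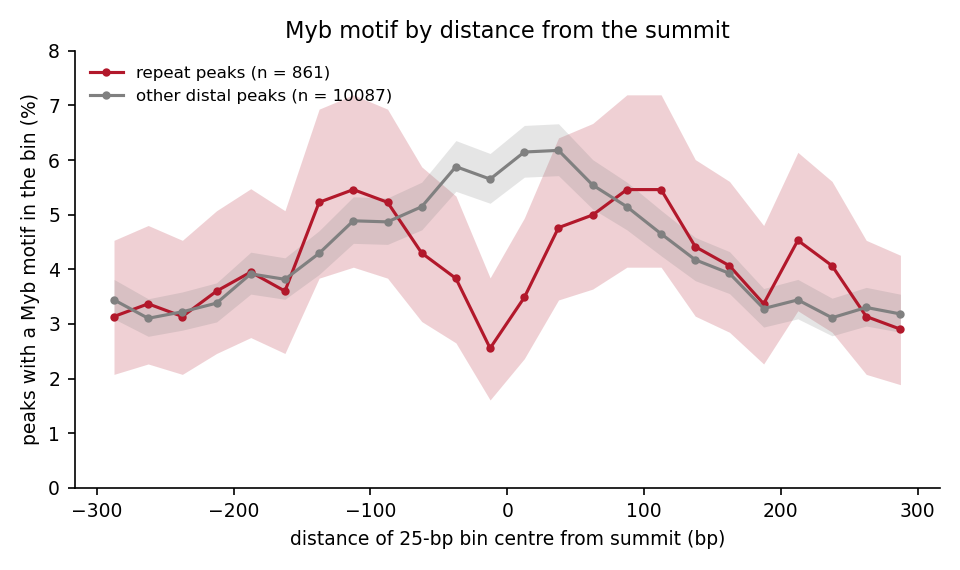
Share of peaks with a Myb motif in each 25-bp bin by distance of the bin centre from the summit in bp, with 95% exact binomial bands, for 861 repeat peaks and 10087 other distal peaks. The other distal peaks are highest at the summit (6.15%), and the repeat peaks, chosen for masked bases at the summit, dip there (2.56%) and reach 5.46% at 112.5 bp on both sides.

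Sites of other factors of blood cells were compared in the same windows, on both strands, with no spelling shared between factors. GATA factors, regulators of stem and erythroid cells, were searched as AGATAA or TGATAA and found at 14.5% of repeat summits, 3.48 points above the flanks (0.787 to 6.36). The GATA difference from masked genome windows was 2.06 points (−0.147 to 4.58). For RUNX, the family of Runx1, the spelling TGTGGT was found at 11.4%, 2.73 points above the flanks (0.315 to 5.34) and 4.60 points above masked genome windows (2.64 to 6.90). Of the 98 summits with it, 19 belonged to the family of 45, and the share among the remaining repeat peaks was 9.68%. For ETS factors, AGGAAG or CGGAAG was found at 17.2%, 2.38 points above the flanks (−0.571 to 5.49) and 6.16 above masked genome windows (3.77 to 8.83). The spelling used for C/EBP factors, TTGCNNAA, was at 3.83%, and its difference from the flanks was −0.174 points (−1.68 to 1.54). The E-box, as CAGCTG or CAGATG, was at 12.0% with a difference of 0.174 points (−2.39 to 2.92). For AP-1, the spelling TGANTCA was at 3.48% with a difference of 0.523 points (−0.855 to 2.13).

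The site of interferon regulatory factors was the exception, being found more often at repeat peaks than at the other distal peaks. It lay at 36 repeat summits (4.18%), 2.52 points above the other distal peaks (1.34 to 4.09), 2.56 above the repeat peaks' own flanks (1.21 to 4.19) and 1.99 above masked genome windows (0.835 to 3.54). This site, a pair of GAAA separated by any 2 bases, also matches A-rich repeat sequence: the 36 windows had a median GC content of 36.1%, and 3 of them held a perfect tandem repeat. The CTCF site was at 0.116% of repeat summits, a single peak, and at 0.535% of the other distal peaks.

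**Figure D3:**
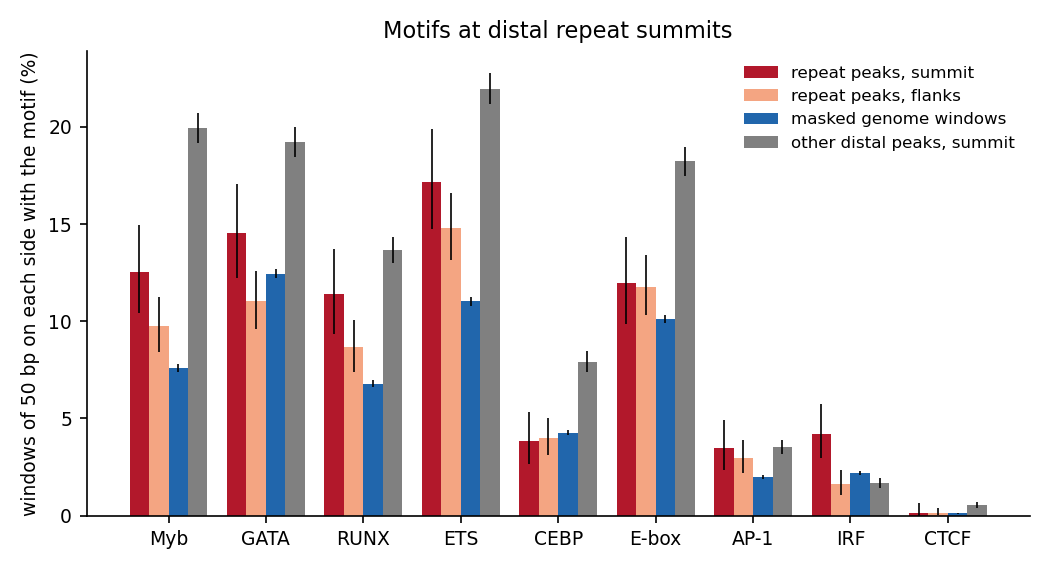
Share of windows of 50 bp on each side with each motif in percent, at repeat summits, in the repeat peaks' flanks, in masked genome windows and at the other distal summits, with 95% exact binomial intervals. The Myb bars stand at 12.5%, 9.76%, 7.6% and 19.9%, and the IRF bar is higher at repeat summits (4.18%) than at the other distal summits (1.67%).

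By kind of sequence, 60 repeat peaks held a tandem repeat of a unit of 1 to 6 bp over at least 20 bp, 128 resembled the annotated B1 element or 7SL RNA (called B1-like), 45 formed the family above, 176 had another similar member and 452 had none. Their median fold enrichments were 4.15, 4.15, 4.15, 3.96 (3.88 to 4.15) and 4.26 (4.15 to 4.47). The Myb motif share did differ, at 5% (1.04 to 13.9), 5.47% (2.23 to 10.9), 51.1% (35.8 to 66.3), 15.3% (10.4 to 21.5) and 10.6% (7.93 to 13.8) in that order. Similar peaks share much of their sequence, so their motifs are not independent and these intervals are too narrow for the larger groups of alike peaks. Whether the likeness comes from common descent was not tested.

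**Figure D4:**
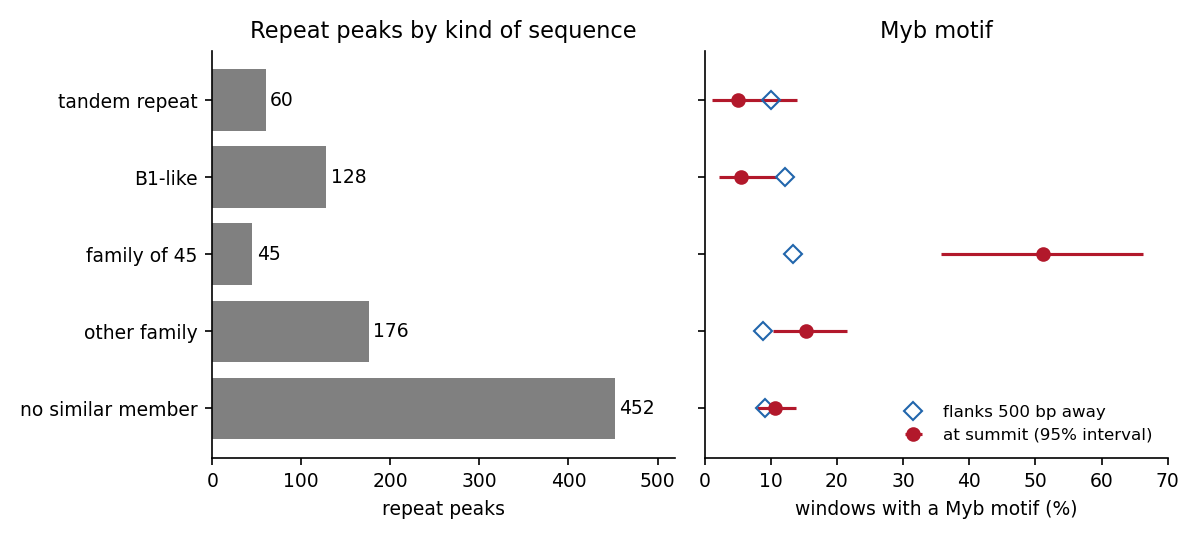
Left, number of repeat peaks of each kind of sequence. Right, percent of windows with a Myb motif at the summit (points, 95% exact binomial intervals) and in the flanks 500 bp away (diamonds), where the family of 45 stands at 51.1% against 13.3% in its flanks and the B1-like peaks at 5.47% against 12.1%.

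Similarity between windows was scored with blastn on the 801 repeat peaks without a tandem repeat. A similar second member existed for 337 of them (42.1%, 38.6 to 45.6), in 23 families, of which 12 had 3 or more members. Among other distal peaks without a tandem repeat, 1.50% (1.27 to 1.76) had a similar peak. The masking rule that separates these groups picks out repeat sequence, so this contrast was largely set in advance. The largest family had 198 members on 20 chromosomes, 114 of them B1-like, though with matches of at least 120 bp its largest piece had 69. It was led by the 9.96-fold peak near Irf2bpl. Other leading peaks were near Tcf12 for the family of 45 (7.51-fold), Rcan3 for a family of 18 (11.4-fold), Adgrg1 for a family of 15 (5.15-fold) and Itch for a family of 10 (7.49-fold). Tcf12 encodes an E protein, Adgrg1 an adhesion receptor of stem cells and Itch a ubiquitin ligase. The family of 18 held no Myb motif at its summits and 6 GATA motifs, the family of 15 held 1 Myb motif, and the family of 10 held 4.

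In the family of 45, spread over 16 chromosomes, the Myb motif share was 40.7 points above that of the remaining repeat peaks (26.4 to 54.8). The family was set apart with this share known and its members are alike, so the interval does not test the difference. The family's share, 51.1%, was close to the 51.98% of all distal genome copies of the element that carry the motif. The latter share was counted over aligned copies (median 136 bp), not over summit windows. Among the copies that held a Myb summit, described below, 25 of 33 carried the motif. The motif was TAACTG in 19 members, CAACTG in 6 and TAACGG in 1, some members holding more than 1 form. It lay wholly in masked bases in 20 of the 23 and its centre was a median of 23.5 bp from the summit. Of the 45 windows, 19 had the RUNX motif (42.2%, 27.7 to 57.8), against 9.68% of the remaining repeat peaks, and 10 the AP-1 motif (22.2%, 11.2 to 37.1), against 2.45%. About as many or more members lacked each of these motifs as had it, and whether the motifs belong to the family's ancestral sequence was not tested. The shares of genome copies with the RUNX and AP-1 motifs were not counted. Fold enrichment ran from 2.09 to 7.51, with a median of 4.15, no higher than that of repeat peaks as a whole.

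Copies of this family were then sought across the genome with its most central member as the query, a step added after seeing the data. That member is itself a repeat peak with TAACTG, so it counts among the copies with both a motif and a summit. There were 22611 distal copies with a median identity of 79.7%, of which 33 held the summit of a Myb peak (0.146%, 0.100 to 0.205). That is fewer than the 45 peaks of the family, so not every family summit fell within a copy found. Copies that kept a Myb motif held a summit in 25 of 11754 cases (0.213%, 0.138 to 0.314), and copies without one in 8 of 10857 (0.0737%, 0.0318 to 0.145). The ratio was 2.89 and the difference 0.139 points (0.0398 to 0.246). It was 2.88 among copies whose central 75 bases were unique. Even so, 11729 distal copies with the motif held no summit.

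B1-like copies gave fewer peaks per copy. B1-like sequence, by blastn at the summit, was found at 140 repeat peaks including tandem ones (16.3%, 13.9 to 18.9), at 5.67% of masked genome windows (5.51 to 5.84) and at 0.436% of the other distal peaks, so the repeat peaks exceeded the masked windows by 10.6 points (8.27 to 13.2). Across the genome, 70 of 198812 distal B1-like copies held a summit (0.0352%, 0.0274 to 0.0445). A copy needed a match of at least 80 bp. The 70 are fewer than the 140 peaks, so not every B1-like summit fell within a copy found. The copies with a summit were more diverged from the annotated element, with a median identity of 82.4% against 86.5% over all copies. With copies unique at 75 bases alone, the medians were 82.0% and 84.2%. The Myb motif was rare in B1-like copies (2.05%), and 3 of 4080 copies with it and 67 of 194732 without it held a summit, a difference of 0.0391 points (−0.0103 to 0.182). The ratio was 2.14 and rests on only 3 copies with the motif, so no difference by motif was detectable at this depth among B1-like copies.

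Tandem repeats lay at 60 repeat summits (6.97%, 5.36 to 8.88), at 8.24% of masked genome windows (8.05 to 8.44) and at 0.367% of the other distal peaks. Unmasked genome windows held one in 0.860% of cases, so the masking rule largely set the contrast with the other distal peaks. The units at the peaks differed from those of the genome. AAAAC led with 13 peaks (1.51%, 0.806 to 2.57) but was in 0.283% of masked genome windows (0.246 to 0.323), whereas AC, the commonest unit of the genome windows at 2.18% (2.07 to 2.28), was at 7 peaks (0.813%, 0.327 to 1.67). Units of 2 to 5 A followed by 1 C, counted as 1 group after seeing the data, were at 22 peaks (2.56%) against 0.840% of genome windows, a difference of 1.72 points (0.851 to 3.0). For AC the difference was −1.36 points (−1.79 to −0.501). A run of A was at 8 peaks and AAAC at 5. For the units A, AC and AAAC the strongest peaks were near Samd8 (A, 5.72-fold, 17 reads), Zfp36l1 (AC, 5.56-fold, 20 reads) and Resf1 (AAAC, 4.30-fold, 13 reads). None of the 13 AAAAC peaks held a Myb motif.

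A-rich sequence in general showed the same direction. Windows with at least 50 A or at least 50 T in the window were 100 of 861 repeat summits (11.6%, 9.55 to 13.9), 3.50 points above masked genome windows (1.51 to 5.82) and 11.2 above the other distal peaks (9.24 to 13.5), a measure also chosen after seeing the data. The share was 8.12% in masked and 0.936% in unmasked genome windows, so the masking rule largely set the difference from the other distal peaks. The best match of 12 repeat peaks to any annotated small RNA was to Bc1 RNA, but all 12 matched its bases 72 to 131, which are 78.3% A, so they were not called Bc1-like.

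Genes with a role in blood cells near repeat peaks were taken from 4 lists of 20 genes each. A repeat peak lay within 50 kb of a start site of 11 of these 80 genes (13.8%, 7.07 to 23.3), against 7.13% of all 21911 protein-coding genes (1563 genes). The list of stem and progenitor regulators had 6 of 20, erythroid and megakaryocyte genes 3, myeloid genes 1 and lymphoid genes 1, and a list of 20 genes of other cell types had 1. Each of these genes had a single repeat peak in that range, so these counts are small.

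Among the stem and progenitor regulators, the strongest repeat peak was in an intron 11650 bp from a start of Erg, an ETS factor needed for stem cell maintenance, with 8.13-fold enrichment and 28 reads. The peak of Runx1, the core RUNX factor of blood stem cells, belonged to the family of 45 and held the CAACTG motif printed above, 6138 bp from a start site, with 3.76-fold enrichment and 15 reads. Those of Lmo2, a bridging factor of the Tal1 complex (4.47-fold, 13 reads), Etv6, an ETS repressor (4.40-fold, 16 reads), Hhex, a homeobox factor (4.18-fold, 15 reads), and Ldb1, a partner of Lmo2 (4.72-fold, 24 reads), held no motif. The Hhex and Ldb1 peaks were B1-like, and the Ldb1 peak was nearer to a start of Pprc1. Outside that list, Vwf, which encodes von Willebrand factor of platelets and endothelium, had a 7.73-fold peak (25 reads), Car2, a carbonic anhydrase of red cells, a 6.81-fold peak (21 reads) and Gp9, a platelet receptor subunit, a 4.44-fold peak (16 reads). The lymphoid gene was Ebf1, the B-lineage factor (6.03-fold, 18 reads), and the myeloid gene Fcgr3, an Fc receptor (3.22-fold, 9 reads, −log10 q 0.803). Pecam1, an adhesion molecule of endothelium also found on blood cells, was the gene of the other list (3.89-fold, 14 reads). Of these 12 peaks, 1 held a Myb motif within 50 bp of the summit.

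Repeat peaks were spread over many genes. They lay nearest to 756 protein-coding genes, of which 90 had 2 or more and 11 had 3 or more. Slc7a15 had the most, with 6 peaks of 3.22-fold to 5.09-fold enrichment, followed by Fam69a with 4 (3.73 to 5.83). Car1, a carbonic anhydrase gene of the same cluster as Car2, had 3 (3.84 to 5.09). RefSeq annotates 1019 enhancers on the chromosomes, and 2 of the 861 repeat summits lay within one (0.232%, 0.0281 to 0.837), against 85 of the 10087 other distal summits (0.843%, 0.674 to 1.04).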

How the data were processed

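The authors' steps were adapter trimming (Cutadapt 1.15), alignment to mm10 (BWA 0.7.13) and removal of duplicates (Picard). They kept reads of mapping quality above 30 outside blacklisted regions, and called peaks with MACS2 2.1.1.20160309 against IgG, keeping those shared by pseudo-replicates (random splits of 1 library). In the deposited list, the authors' fold enrichment is a ratio, p- and q-values are −log10 values, and an integer score accompanies each peak. The depth of the library is not given in the list; reads over each summit were recovered from fold and p (Myb pileup scale 0.769, tolerance 0.002 in −log10 p, whole reads at 100% of 25793 peaks). PCR reads carry no molecular identifiers.

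Summits, masking (RefSeq GRCm38.p6; the masking program is not given in the sources used here) and GENCODE vM21 start sites gave the repeat peaks. Background windows were 223604 distal positions every 10 kb, of which 76078 met the masking rule and 147526 did not. Shares have exact Clopper-Pearson intervals, differences of shares Newcombe intervals, medians order-statistic intervals and counts exact Poisson intervals. Families joined windows of 100 bp on each side of the summit by blastn (BLAST+ 2.17.0; e-value 1e-10, matches of at least 80 bp); annotated elements used 1e-05. Peaks of 1 library are not replicates, so no p-value was computed. The 10 peaks of highest fold, the strongest peak of each tandem unit with at least 5 peaks and of the 5 largest families, and listed blood genes were named by rule, except 1 peak on a tandem repeat that is not reported here; genes with 3 or more repeat peaks were added after their values were seen. Members and lists were chosen with earlier results of these data known. Tandem repeats, motifs, families and uniqueness were tested on simulated data. Scripts used Python 3.11.15.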

Additional observations from a re-analysis of the deposited data

How the results depend on the processing

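With 1 library there is no replicate to leave out. No paired analysis was possible because each antibody had a single library. Of 65 alternative values, 35 stayed within the interval of the reported value (or within 1.5 times it for counts) and 30 did not. Repeat summits remained rarer than the genome share of the same masking rule under 7 changes of that rule or of the distance, by 2.81 to 12.1 times. Their number (861) and share of distal peaks (7.86%) became 246 and 5.41% at −log10 q of at least 5, 184 and 1.68% at 90% masked, 1473 and 13.5% by the summit base, and 383 and 6.79% beyond 10 kb. The share was 7.35% at −log10 q of at least 2, 10.6% with 25 bp on each side and 6.05% with 100 bp on each side. The median fold was 4.47 and 5.98 at −log10 q of at least 2 and 5, 4.27 by the summit base and 4.27 with 25 bp on each side. The Myb motif share was 15.4% at −log10 q of at least 5, 15.1% by the summit base, 15.6% with masking over 100 bp on each side, 47.9% with AACNG, 24.9% with that spelling preceded by C or T, 5.46% within 25 bp and 28.7% within 100 bp. Tandem repeats were at 4.21% by the summit base, 17.2% from 15 bp and 1.86% from 30 bp. Summits unique at 36 bp were 91.1%. Peaks with a similar member were 48.3% at an e-value of 1e-05 and 27.1% with matches of 120 bp, and the family of 45 fell within families of 46 (45 shared) and 40 (40 shared), the family of 198 within one of 237 (198 shared) and, in part, one of 69 (69 shared). Joining gaps of 20 bp gave a median block of 132 bp. Blood genes with a repeat peak within 100 kb were 17 of 80 (21.25%, 12.9 to 31.8), against 12.4% of all protein-coding genes at that distance. Apart from what each alternative changes by construction, the cause of these shifts was not tested. Most peaks rest on fewer than 20 reads, and no expression data were analysed here.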
